A study of Mus musculus with 20 samples.

Results

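The 8 genes described here, Nphs1, Podxl, Synpo, Wt1, Ptpro, Clic5, Plce1 and Magi2, are used as markers of podocytes, the epithelial cells that cover the outside of the glomerular capillaries. They were taken by symbol from a table of 19940 genes, and all 8 were found. The measurements are 3′ RNA sequencing of whole kidneys from male mice, in which each transcript is read near its polyadenylated end. The 20 libraries fall into 4 groups of 5: generation 3 (G3) Tert-/- mice at 47 weeks (old), Tert+/+ mice at 47 weeks, G3 Tert-/- mice at 7 weeks (young) and Tert+/+ mice at 7 weeks. Telomerase extends chromosome ends, Tert codes for its catalytic subunit, and telomeres shorten from one generation of mice lacking it to the next. The study is titled around short telomeres and fibrosis of the kidney, and crossing genotype with age asks what each changes. No drug or other treatment is given for these mice in the labels. The labels do not say whether each library is a separate animal, so p-values measure the spread between these samples.

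Podocytes extend interlocking foot processes that wrap the capillaries, and neighbouring processes are joined by the slit diaphragm, a protein sheet that completes the filtration barrier. Nephrin forms the core of that sheet, scaffold and signalling proteins tie it to the actin bundles of the foot process, and a negatively charged sialomucin coats the free surface of the cell. Loss of several of these proteins causes proteinuria in mice and in humans. In a whole kidney podocytes are a small share of the cells. Fewer podocytes, less RNA per podocyte and RNA of these genes from other cells cannot be told apart in these data.

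Values are normalized read counts, in which the reads of a gene are divided by 1 size factor per library. Libraries held 7161690 to 9757594 reads assigned to genes, and 3 reads corresponded to 2.49 to 3.38 normalized counts. All 8 podocyte genes were counted in every library, with 31.5 for Wt1 as the lowest value, and all 8 passed the filter for testing (a normalized count of 10 or more in at least 5 libraries), as did 14630 genes in all. Markers of the proximal tubule summed to between 62663 and 98697 per library and those of the distal nephron to between 17314 and 40592, so the libraries carried the transcripts of kidney epithelium. Tert was at 5.11 to 8.31 in G3 Tert-/- old, 7.25 to 16.9 in Tert+/+ old, 0.979 to 5.65 in G3 Tert-/- young and 4.21 to 15.7 in Tert+/+ young kidneys. The deleted part of Tert is not given in the labels, so these 3′ counts do not check the genotype. On the first principal component of all tested genes, which held 22% of the variance, 2 libraries stood apart: Tert+/+ young replicate 1 at 67.5 and Tert+/+ old replicate 4 at 56.6, against -39.4 to 21 for the other 18. Results that rest on these 2 libraries are given with and without them.

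Clic5 was the 1 podocyte gene whose level passed the test in any comparison, and its upstream sequence is shown for that reason beside the sequence of Ptpro, which lies on another chromosome and whose own age difference missed the threshold. The sequences are the 250 bases before the RefSeq transcription start on GRCm38.p6, plus strand. The first is chr17:44188322-44188571 and the second chr6:137252049-137252298. Capitals mark the GC box, the letters GGGCGG or their reverse complement CCGCCC.
Clic5: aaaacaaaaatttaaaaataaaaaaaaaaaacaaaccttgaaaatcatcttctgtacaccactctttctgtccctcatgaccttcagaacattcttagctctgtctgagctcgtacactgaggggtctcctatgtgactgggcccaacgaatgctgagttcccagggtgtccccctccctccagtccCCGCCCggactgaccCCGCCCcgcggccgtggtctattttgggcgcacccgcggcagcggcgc
Ptpro: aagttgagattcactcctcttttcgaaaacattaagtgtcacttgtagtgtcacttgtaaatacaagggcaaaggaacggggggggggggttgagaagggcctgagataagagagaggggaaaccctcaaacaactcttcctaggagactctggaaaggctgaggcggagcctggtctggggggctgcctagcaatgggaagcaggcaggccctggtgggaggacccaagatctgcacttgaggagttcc
The Clic5 window held the GC box at 63 to 58 and at 48 to 43 bases before the start, both on the minus strand, with a GC content of 52.8%. The Ptpro window held none, with a GC content of 53.6%. The GC box occurred in 32.7% of 32851 promoter windows of the same length. Neither window held GCGNGGGCG, a sequence bound by WT1 and EGR proteins and present in 4.7% of windows, TGCTGAC, a sequence bound by MAF proteins and present in 3.81%, TAATTA, the FLAT element bound by LMX1B and present in 4.84%, or TATAAA, the TATA box present in 12.4%. Both strands were searched, and a match is a description of the letters. RefSeq windows were matched for 5 of the 8 genes: Nphs1, Ptpro, Clic5, Plce1 and Magi2. Magi2, which did not pass by age, had 2 windows. Its second also held the GC box, at 28 to 23 bases before the start, and TAATTA at 227 to 222. Its first window and those of Nphs1 and Plce1 held none of the sequences searched.

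Of the 8 podocyte genes, 1 passed the test in any comparison: Clic5, which was lower in old than in young kidneys. In the fit across all tested genes (limma on log2(normalized count + 1), two-sided, Benjamini-Hochberg adjustment over 14630 genes, passed under an adjusted p of 0.05), none of the 8 passed for genotype at 47 weeks, where 0.0957% of all genes passed. None passed for genotype at 7 weeks, where 0% of all genes passed. None passed for genotype over both ages, against 0.0273% of all genes. None passed for age in G3 Tert-/- kidneys, against 2.24% of all genes, or for age in Tert+/+ kidneys, against 0.649%. Over both genotypes, Clic5 was lower in old kidneys, 1 of 8 genes, where 4.49% of all genes passed and 2.43% passed as lower. At an unadjusted p under 0.05, the counts were 2 of 8 for genotype at 47 weeks (6.58% of all genes), 1 at 7 weeks (10.7%), 2 for age in G3 Tert-/- (14.9%), 2 for age in Tert+/+ (10.6%), 3 for genotype over both ages (11.1%) and 1 for age over both genotypes (17.4%). At this unadjusted threshold, the 1 of 8 by age over both genotypes is below its share of all genes. The counts of the other comparisons listed are above theirs. With only 8 genes, the counts were not tested against these shares. The edgeR and DESeq2 tests on recovered reads passed the same numbers of the 8 genes in each of these comparisons.

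**Figure D1:**
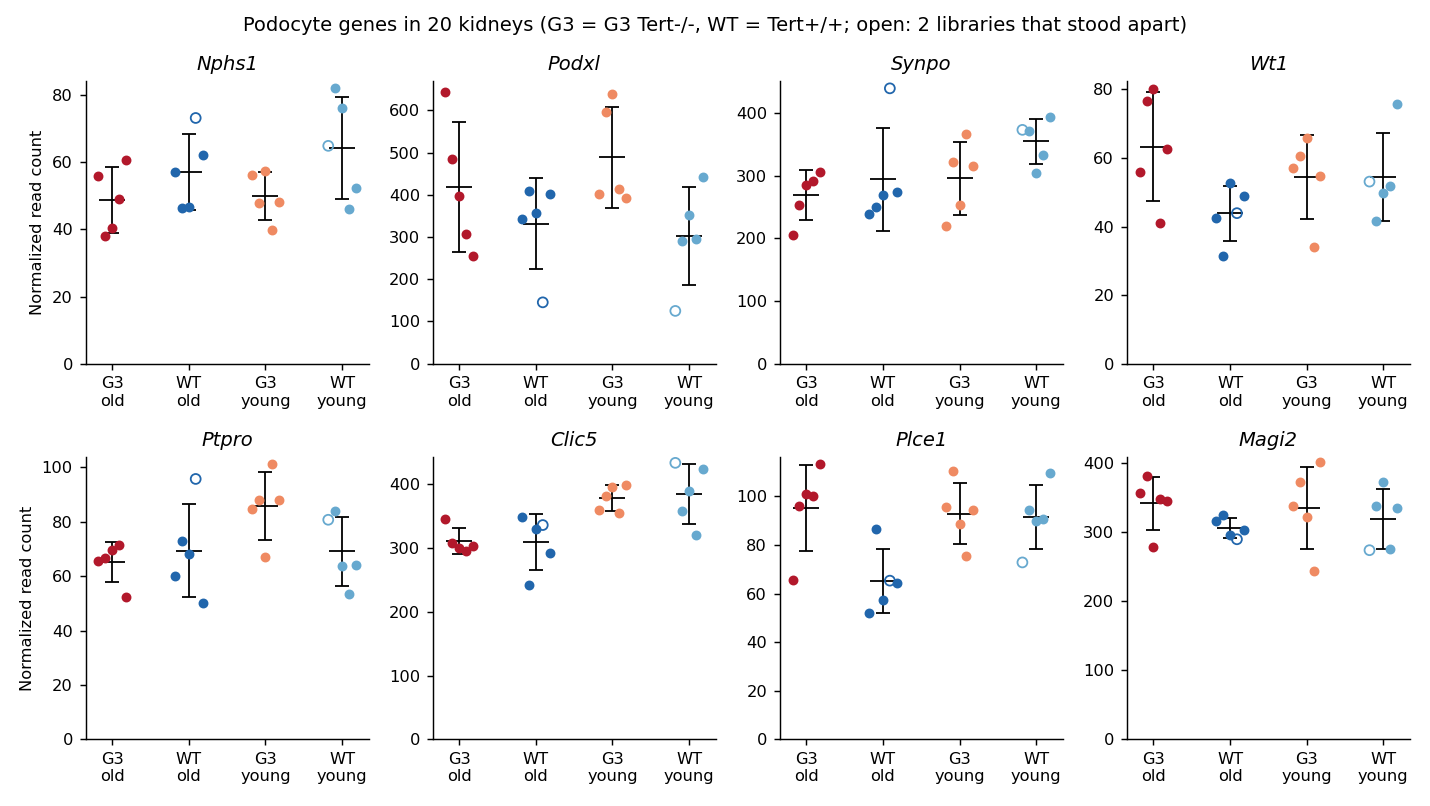
Normalized read counts of the 8 podocyte genes in each library (points), with the mean and SD of each group of 5 in black and groups on the horizontal axis. Open points are the 2 libraries that stood apart; they hold the lowest Podxl values, 125 and 145, while Clic5 in old kidneys lies mostly below Clic5 in young kidneys.

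Nphs1 (chromosome 7, 30458315 to 30487223, plus strand) encodes nephrin, the adhesion protein that spans the slit diaphragm. Its counts were 56.0, 37.9, 40.5, 49.0 and 60.6 in G3 Tert-/- old kidneys and 57.0, 46.3, 46.7, 73.2 and 62.3 in Tert+/+ old kidneys. At 7 weeks they were 56.3, 48.0, 57.5, 39.9 and 48.2 in G3 Tert-/- kidneys and 64.9, 82.0, 76.3, 46.2 and 52.2 in Tert+/+ kidneys. The groups overlapped at both ages, and the 3 highest values of all 20 libraries were in Tert+/+ kidneys. The log2 fold change for genotype was -0.22 at 47 weeks (95% interval -0.61 to 0.16) and -0.34 at 7 weeks (-0.72 to 0.05), with adjusted p of 0.875 and 0.493. Without the 2 libraries that stood apart, the value at 47 weeks was -0.13 (adjusted p 0.946). Over both ages it was -0.28 with an adjusted p of 0.437, and 0.0381 in the exact permutation test of genotype within each age for this gene alone, two-sided and unadjusted. By age, its log2 fold change was -0.04 in G3 Tert-/- and -0.16 in Tert+/+ kidneys, the second at -0.24 without those 2 libraries. Exons of Nphs1 overlap the antisense gene Nphs1os and the pseudogene Rps12-ps4 on the opposite strand. Exons of Plce1 overlap the antisense gene Gm28991. The kit and the counting setting are stranded, per the labels' protocols. Exons of Magi2 overlap the noncoding gene Gm29254 on the same strand, which stranded counting does not separate.

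Magi2 (chromosome 5, 19227036 to 20704792, plus strand) encodes a scaffold protein that binds nephrin at the slit diaphragm. Its level averaged 342 ± 38.1 in G3 Tert-/- old, 306 ± 14.8 in Tert+/+ old, 335 ± 59.5 in G3 Tert-/- young and 319 ± 42.8 in Tert+/+ young kidneys (SD, n = 5 each), and it varied least of the 8 genes, with a coefficient of variation of 12.6% over 20 libraries. Its log2 fold change lay between -0.05 and 0.15 in the 4 comparisons within an age or a genotype, and the interval for genotype at 47 weeks ran from -0.10 to 0.41. The groups overlapped in each comparison, and its order of means was not separated from one group to the next beyond the spread.

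Plce1 (chromosome 19, 38481109 to 38785030, plus strand) encodes phospholipase C epsilon, a signalling enzyme whose loss causes childhood nephrotic syndrome in humans. It had 65.5, 96.2, 100.8, 100.1 and 113 counts in G3 Tert-/- old kidneys, against 51.8, 86.7, 57.4, 65.3 and 64.5 in Tert+/+ old kidneys. In young kidneys it had 95.4, 110.6, 88.5, 75.6 and 94.3 counts in G3 Tert-/- and 72.8, 94.5, 90.0, 90.6 and 109 in Tert+/+. Tert+/+ old was the low group, with 4 of its 5 libraries below every Tert+/+ young library, and its highest value overlapped both groups it was set against. The mean was 95.1 ± 17.8 in G3 Tert-/- old, 65.2 ± 13.2 in Tert+/+ old, 92.9 ± 12.6 in G3 Tert-/- young and 91.5 ± 13.0 in Tert+/+ young kidneys.

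In the fit, Plce1 was 0.54 higher on the log2 scale in G3 Tert-/- than in Tert+/+ kidneys at 47 weeks (SE 0.16, 95% interval 0.20 to 0.87), with an adjusted p of 0.417 in limma. The exact permutation test of this gene alone gave p = 0.0159, where 5 against 5 allows no p below 0.00794. At 7 weeks the difference was 0.02. The interval at 47 weeks lay above 0 for this gene taken alone, and the gene did not pass over all genes. By age, the value was -0.49 in Tert+/+ (SE 0.16, adjusted p 0.21, exact permutation p = 0.0159) and 0.02 in G3 Tert-/-. The difference between the genotype effects at 47 and 7 weeks was 0.51 (95% interval 0.04 to 0.99), with an unadjusted p of 0.0353 and an adjusted p of 0.791 in limma. It was the 1 podocyte gene with an unadjusted p under 0.05 for that interaction, none of the 8 passed, and 0.00684% of all genes did. These comparisons share the Tert+/+ old libraries.

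Podxl (chromosome 6, 31519488 to 31563981, minus strand) encodes podocalyxin, the sialomucin of the free podocyte surface, which vascular endothelium also makes. Its counts were 643, 485, 397, 307 and 255 in G3 Tert-/- old kidneys and 342, 409, 357, 145 and 402 in Tert+/+ old kidneys. At 7 weeks they were 402, 595, 640, 414 and 391 in G3 Tert-/- kidneys and 125, 291, 352, 296 and 443 in Tert+/+ kidneys. It varied most of the 8 genes, with a coefficient of variation of 35.8%, and the lowest values of all 20 libraries, 125 and 145, were those of the 2 libraries that stood apart. The other 18 libraries held 255 to 643. The groups overlapped in each comparison.

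Podxl was 0.77 higher on the log2 scale in G3 Tert-/- than in Tert+/+ kidneys at 7 weeks (SE 0.31, 95% interval 0.14 to 1.41), with an adjusted p of 0.435 in limma and an exact permutation p of 0.0317. At 47 weeks the value was 0.35 (95% interval -0.29 to 0.98). Without the 2 libraries that stood apart, the log2 fold changes were 0.49 at 7 weeks (adjusted p 0.524 in limma) and 0.07 at 47 weeks. Both estimates were nearer to 0 without those 2, which are Tert+/+ libraries with low Podxl. Over both ages the value was 0.56 with all libraries (adjusted p 0.405) and 0.28 without the 2. By age, Podxl showed -0.27 in G3 Tert-/- and 0.16 in Tert+/+ kidneys.

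**Figure D2:**
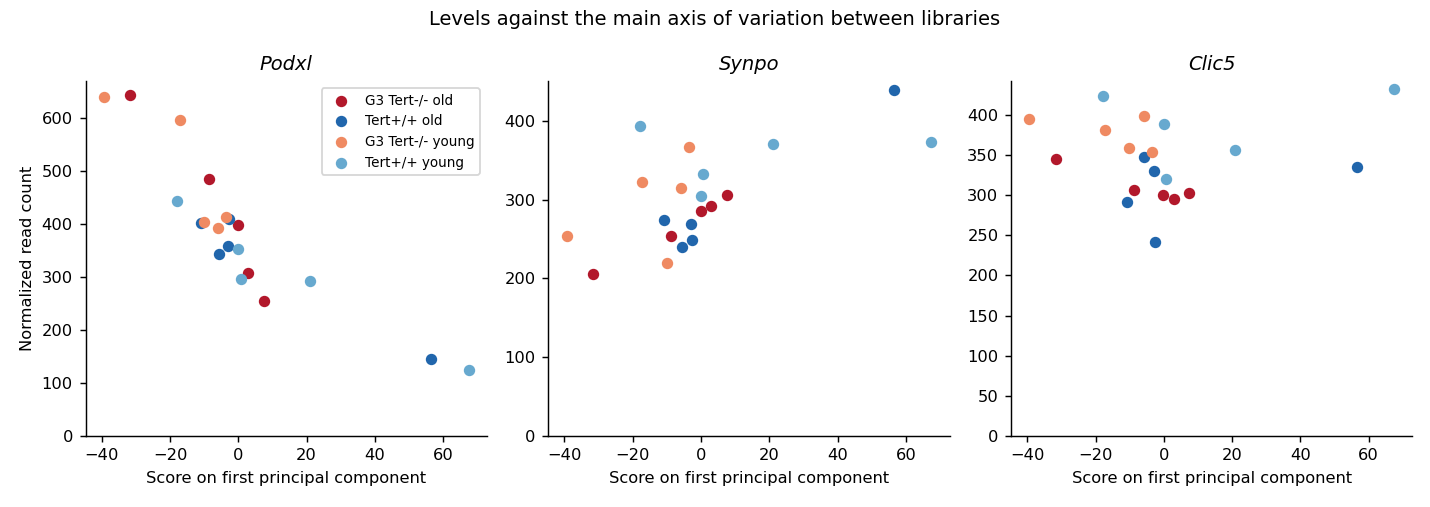
Normalized read counts of Podxl, Synpo and Clic5 against the score of each library on the first principal component of all tested genes, with colours for the 4 groups. Podxl falls along the axis (Pearson r = -0.88 over the 18 libraries other than the 2 at the right), while Synpo (r = 0.44) and Clic5 (r = -0.35) scatter more widely.

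The level of Podxl followed the main axis of variation between libraries. Over the 18 libraries other than the 2 that stood apart, with the 4 groups pooled, Pearson's r between its log2 value and the score on the first principal component was -0.88 and Spearman's rho was -0.87. Each had a permutation p of 1e-05, the smallest that 100000 permutations can give, and an adjusted p of 8e-05 over the 8 genes. Leaving out the 2 libraries farthest from the median score gave r = -0.80. The adjusted p of the other 7 genes was 0.24 or more for either coefficient, with Synpo at r = 0.44 and Wt1 at r = -0.37. The component was computed from all tested genes, these 8 included, and with groups pooled, differences between groups also enter r. The share of all genes with as strong an r was not computed. The permutation p therefore does not set Podxl apart from genes in general. What the component reflects was not tested.

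Ptpro (chromosome 6, 137252319 to 137463233, plus strand) encodes a receptor tyrosine phosphatase, also called GLEPP1, of the free surface of the foot processes. It had 65.5, 66.5, 69.6, 71.5 and 52.5 counts in G3 Tert-/- old kidneys, against 84.5, 88.1, 66.9, 101 and 87.9 in G3 Tert-/- young kidneys. It had 60.1, 72.9, 68.2, 95.7 and 50.1 counts in Tert+/+ old kidneys, against 80.7, 83.9, 63.6, 53.6 and 63.9 in Tert+/+ young kidneys. In G3 Tert-/- mice 4 of the 5 young libraries lay above every old one, and the remaining young library lay among them. In Tert+/+ mice old and young libraries were mixed. The age difference was -0.39 on the log2 scale in G3 Tert-/- (SE 0.17, 95% interval -0.74 to -0.04, adjusted p 0.271 in limma, exact permutation p = 0.0238) and -0.01 in Tert+/+. The interaction of -0.38 did not pass. For genotype its log2 fold change was 0.31 at 7 weeks (95% interval -0.04 to 0.66) and -0.07 at 47 weeks.

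Clic5 (chromosome 17, 44188584 to 44280172, plus strand) encodes a chloride intracellular channel protein that is held with ezrin at the foot process membrane, and glomerular endothelium also makes it. Its counts were 345, 307, 300.2, 295 and 303 in G3 Tert-/- old kidneys, against 359, 382, 396, 354 and 399 in G3 Tert-/- young kidneys. Every G3 Tert-/- old library was below every G3 Tert-/- young one, the only 1 of the 8 genes with groups that did not overlap in this comparison, where 4.6% of all genes did not overlap. Its counts were 348, 241, 330.1, 336 and 292 in Tert+/+ old kidneys, against 433, 357, 389, 321 and 424 in Tert+/+ young kidneys. In Tert+/+ mice the groups overlapped through 1 young library at 321. None of the 8 genes had separate groups by age in Tert+/+ mice (2.53% of all genes), by genotype at 47 weeks (2.31%) or by genotype at 7 weeks (1.4%).

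Over both genotypes, Clic5 averaged 309.8 ± 32.0 in old and 381 ± 34.3 in young kidneys (SD, n = 10 each), with ranges of 241 to 348 in old and 321 to 433 in young kidneys. It fell by 0.30 on the log2 scale in old kidneys (SE 0.08, 95% interval -0.46 to -0.14), 1.23-fold lower, with an adjusted p of 0.0239 in limma. The change was -0.28 in G3 Tert-/- (adjusted p 0.199, exact permutation p = 0.00794, the smallest that 5 against 5 allows) and -0.32 in Tert+/+ kidneys (adjusted p 0.236, exact permutation p = 0.0476). Both changes had the same sign, and the interval of their difference, 0.03 (95% interval -0.28 to 0.35), included 0. By genotype, Clic5 differed by 0.01 at 47 weeks (95% interval -0.21 to 0.24) and by -0.02 at 7 weeks. An exact permutation of age within each genotype, chosen after seeing the data, gave p = 0.000346, where the smallest possible is 3.15e-05. The change was -0.29 without the 2 libraries that stood apart (adjusted p 0.0213), and leaving out each library in turn gave adjusted p between 0.0143 and 0.0488.

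Since glomerular endothelium also makes Clic5 and Podxl, 10 endothelial markers were counted beside them. The list is of endothelium in a whole kidney and not of the glomerulus alone. None of the 10 passed by age over both genotypes, with a median log2 fold change of 0.04. Of the 10 estimates 6 were positive and 4 negative, from -0.22 to 0.26. Their summed level ran from 2922 to 3230.3 in G3 Tert-/- old, 2993 to 3314 in Tert+/+ old, 2983 to 3235 in G3 Tert-/- young and 2780 to 3415 in Tert+/+ young kidneys, with none of the 10 at 0 in any library. The part of endothelial RNA in the Clic5 and Podxl values was not tested.

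Synpo (chromosome 18, 60593973 to 60660142, minus strand) encodes synaptopodin, which binds actin in the foot process. It averaged 269 ± 40.0 in G3 Tert-/- old, 294 ± 82.3 in Tert+/+ old, 295 ± 58.5 in G3 Tert-/- young and 355 ± 35.8 in Tert+/+ young kidneys. The highest count of all 20 libraries, 439, was in Tert+/+ old replicate 4, a library that stood apart, and the other Tert+/+ old libraries held 239 to 274. All 4 of those lay below the lowest Tert+/+ young library, at 304, and only replicate 4 lay above it. The log2 fold change by age was -0.30 in Tert+/+ (adjusted p 0.516 in limma), and -0.43 with an adjusted p of 0.207 without the 2 libraries. Leaving them out moved the estimate away from 0. Over both genotypes it was -0.21 (adjusted p 0.341), and -0.28 with an adjusted p of 0.0929 without them. For genotype it was -0.11 at 47 weeks and -0.28 at 7 weeks, and the first turned to 0.05 without them.

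Wt1 (chromosome 2, 105126529 to 105173616, plus strand) encodes a zinc finger transcription factor that maintains podocyte identity and activates Nphs1. It had 56.0, 76.7, 80.0, 40.9 and 62.6 counts in G3 Tert-/- old kidneys, against 42.5, 31.5, 52.6, 43.9 and 49.0 in Tert+/+ old kidneys. Of the 5 G3 Tert-/- old libraries 4 lay above every Tert+/+ old one, and the remaining library, at 40.9, lay among them. At 7 weeks the means were 54.5 ± 12.2 in G3 Tert-/- and 54.4 ± 12.8 in Tert+/+ kidneys. The log2 fold change for genotype was 0.50 at 47 weeks (SE 0.21, 95% interval 0.06 to 0.93), with an adjusted p of 0.698 in limma and an exact permutation p of 0.0635. By age it was 0.21 in G3 Tert-/- and -0.30 in Tert+/+ kidneys, and the interaction of 0.50 had an adjusted p of 0.819. Leaving out 1 library gave 0.05 (without G3 Tert-/- young replicate 4) to 0.35 (without G3 Tert-/- old replicate 4) in G3 Tert-/-, and -0.38 to -0.17 (without Tert+/+ young replicate 5) in Tert+/+ kidneys.

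**Figure D3:**
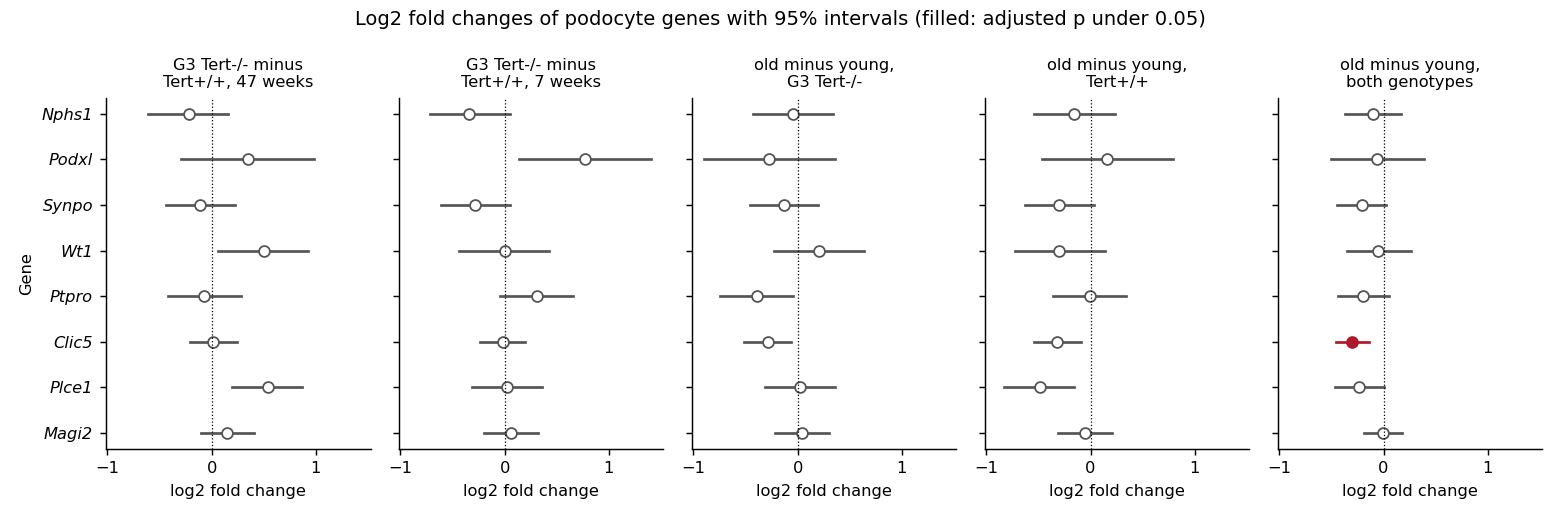
Log2 fold changes of the 8 podocyte genes with 95% intervals in 5 comparisons, each named above its panel. The filled point is Clic5 by age over both genotypes (-0.30); all other points are open, and all 8 lie below 0 in that panel.

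Across the 8 genes, the genotype estimates lay on both sides of 0. Their median log2 fold change was 0.08 at 47 weeks, with 3 of 8 negative, and 0.01 at 7 weeks, with 4 of 8 negative, beside medians of 0.01 and 0.001 over all tested genes. By age the median was -0.09 in G3 Tert-/- kidneys, with 5 of 8 negative, and -0.23 in Tert+/+ kidneys, with 7 of 8 negative, beside 0.003 and 0.004 over all genes. Over both genotypes all 8 estimates were negative, with a median of -0.15 beside 0.005 over all genes, where 49.0% of genes were negative. After Clic5, the values were -0.24 for Plce1, -0.21 for Synpo, -0.20 for Ptpro, -0.10 for Nphs1, -0.06 for Podxl, -0.05 for Wt1 and -0.01 for Magi2, with adjusted p from 0.297 to 0.987. Of the 20 fits that each left out 1 library, 3 made the Podxl estimate positive, 3 that of Wt1 and 8 that of Magi2. All 8 estimates come from the same libraries. The summed count of the 8 genes had a median of 1552 (1497 to 1795) in G3 Tert-/- old and 1477 (1457 to 1495.5) in Tert+/+ old kidneys. In young kidneys the median was 1791 (1611 to 1978) in G3 Tert-/- and 1658 (1467 to 1896.5) in Tert+/+. The ranges of old and young kidneys overlapped in each genotype. Podxl, Clic5, Magi2 and Synpo, with averages of 303 to 384.5 over all libraries, carried most of the sum. The others averaged 54.0 to 86.2.

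Whether the 8 genes rose and fell together among libraries of 1 group was examined next. With group means removed, 16 of the 28 pairs correlated positively over the 20 libraries, with a median Pearson r of 0.07. No pair passed after adjustment over the 28 pairs, by Pearson's r (lowest adjusted p 0.205, 4 pairs under an unadjusted 0.05) or by Spearman's rho (lowest adjusted p 0.417, 3 pairs). The most positive pair was Synpo with Ptpro (r = 0.51, rho = 0.43, permutation p = 0.0219 and 0.0596), and the most negative was Podxl with Synpo (r = -0.58, rho = -0.47, permutation p = 0.0081 and 0.038). Both were smaller without the 2 libraries that stood apart, at 0.23 and -0.39. Without the 2 libraries farthest from the median of the first gene, r was 0.36 and -0.42. Over the 18 libraries the median r of all pairs was -0.04, and none passed.

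**Figure D4:**
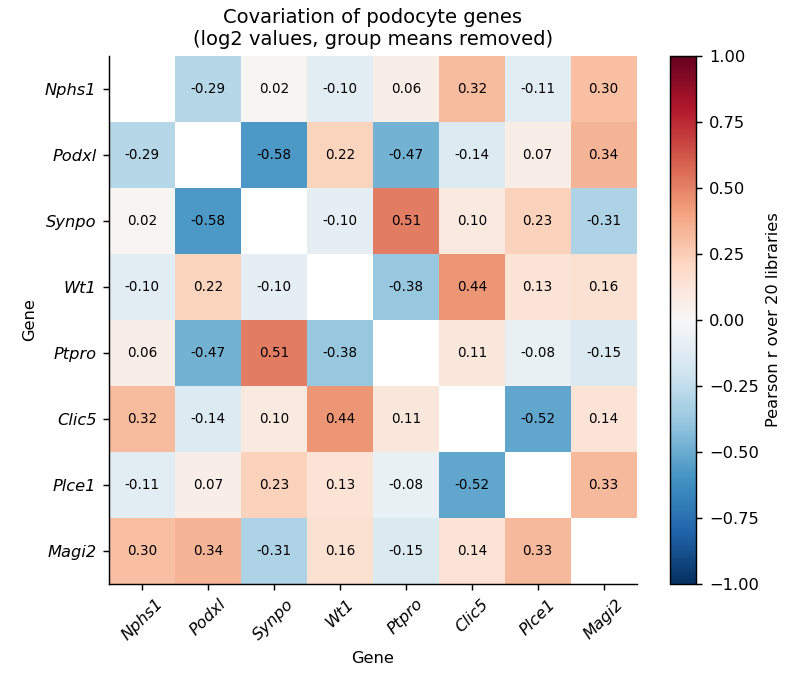
Pearson r of each pair of the 8 podocyte genes over 20 libraries, on log2 values with group means removed; red is positive and blue negative, and each cell holds its r. The values run from -0.58 (Podxl with Synpo) to 0.51 (Synpo with Ptpro), with a median of 0.07.

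Other genes with a role in podocytes were examined in 5 lists: partners of the slit diaphragm, transcription factors, actin regulators, genes of the glomerular basement membrane and adhesion, and further genes enriched in podocytes. The lists are not limited to genes made by podocytes alone. Averages of listed genes over all libraries reached 3011, beside 55.0 for Nphs1. Their values describe the whole kidney, and the part from podocytes was not tested. Of 64 listed genes 63 were in the table and 59 were tested; Kirrel3, Trpc6, Dnm1 and Rasl11a were below the filter. None of the 59 passed in either genotype comparison within an age, in either age comparison within a genotype, or in the interaction. Over both genotypes 2 of 59 were lower in old kidneys and none was higher, where 2.43% of all genes passed as lower, so the count is near the background. The median log2 fold change was -0.04, with 33 of 59 negative.

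**Figure D5:**
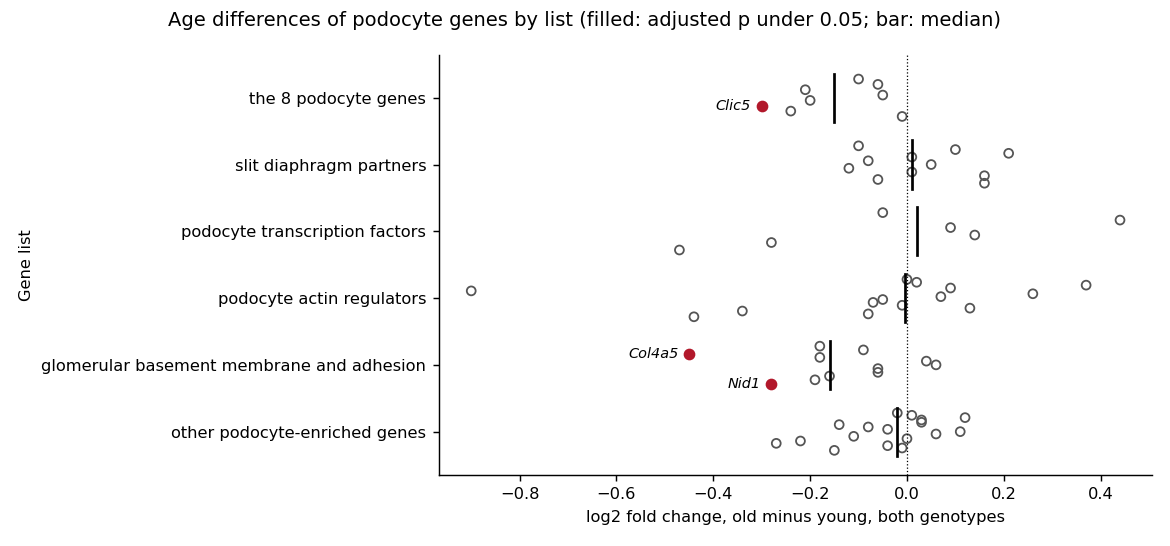
Log2 fold changes by age over both genotypes (horizontal axis) for the 8 podocyte genes and the 5 other podocyte lists (rows); each circle is a gene, filled where the adjusted p was under 0.05, and the bar is the median of the list. The filled genes, Clic5, Col4a5 and Nid1, all lie below 0, and the medians run from -0.16 to 0.02.

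Both genes that were lower belong to the glomerular basement membrane list, in which 9 of 11 genes were negative by age over both genotypes. Col4a5, a collagen IV chain that the mature glomerular basement membrane needs, averaged 44.1 ± 6.73 in old and 60.5 ± 7.43 in young kidneys and fell by 0.45 on the log2 scale (adjusted p 0.0156 in limma). The collagen IV chains Col4a3 (-0.18, adjusted p 0.483) and Col4a4 (-0.09, adjusted p 0.615) of the same list did not pass. Nid1, which encodes nidogen and is made by many cells, averaged 222 ± 31.4 in old and 268 ± 21.9 in young kidneys and fell by 0.28 (adjusted p 0.0457). Nid1 no longer passed in 17 of the 20 fits that each left out 1 library, with adjusted p up to 0.0962, nor in edgeR (0.0538). Col4a5 passed in all 20 of those fits. In the transcription factor list none of 6 passed by genotype at 47 weeks, with 5 positive and a median of 0.28. Lmx1b, a homeodomain factor of podocytes, had the largest estimate of these, 0.91 (95% interval 0.08 to 1.74, adjusted p 0.73), at 28.6 ± 5.72 in G3 Tert-/- old and 15.5 ± 6.17 in Tert+/+ old kidneys.

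Single markers of other kidney cells passed by age over both genotypes, where 4.49% of all genes passed, and within most lists the estimates were mixed in sign. In the tubule, Slc12a3, the sodium chloride cotransporter of the distal convoluted tubule, was 0.60 higher on the log2 scale in old kidneys (adjusted p 3.86e-05 in limma), and Slc12a1 of the thick ascending limb was 0.61 higher (adjusted p 0.0344). Calb1 of the distal tubule fell by 0.55 (adjusted p 0.00276), and 3 of 10 proximal tubule markers were lower: Slc22a6 at -0.45, Slc5a2 at -0.44 and Slc34a1 at -0.33. Of those 10, 5 estimates were positive, among them Aqp1 at 0.37 (adjusted p 0.0988), and the median was -0.02. In the glomerulus, 1 of 7 mesangial markers was higher (Serpine2, 0.38, adjusted p 0.0143) and 1 of 6 markers of parietal epithelium was lower (Ncam1, -0.54, adjusted p 0.00641), while the other 5 parietal estimates were positive and the median was 0.14. Of 6 leukocyte markers all estimates were positive and Cd3e passed (1.12, adjusted p 0.0285), and of 5 hepatocyte markers Ttr was lower (-1.08, adjusted p 0.00255), while Alb (1.15, adjusted p 0.0624) and Fgb (0.82, adjusted p 0.238) had positive estimates that did not pass. Of the 20 fits that each left out 1 library, 10 ended the call of Slc12a1, 16 that of Slc22a6, 13 that of Slc34a1 and 6 that of Cd3e, with adjusted p up to 0.0742, 0.0801, 0.1 and 0.0652. Without the 2 libraries that stood apart, Cd3e had an adjusted p of 0.0523. Within 1 genotype, Slc12a3 was higher in old kidneys in G3 Tert-/- (0.62) and in Tert+/+ (0.57), and Calb1 (-0.61), Slc22a6 (-0.69), Slc5a2 (-0.58) and Ttr (-1.52) were lower in G3 Tert-/-, while no gene of any list passed by genotype at either age. Calb1 no longer passed in 6, Slc22a6 in 13 and Slc5a2 in 7 of the 20 fits in G3 Tert-/-. How far a change in cell makeup enters the podocyte values was not tested.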

How the data were processed

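The deposited signal is a normalized read count per gene and library. The name of the authors' table says so, and 100% of the values of each library were whole multiples of 1 step (tolerance 1e-06, steps 0.8304 to 1.1261), which allowed whole reads to be recovered. Libraries were made with a stranded 3′ kit (QuantSeq FWD) from RNA inputs of 300 ng whose quality scores averaged 6.6 (5.0 to 7.5), per the labels' protocols, with no score per library used here. Per the submitters' processing notes, which give no roles, the build was GRCm38 and the tools included TopHat2 2.0.10, HTSeq 0.6.1 and DESeq2. Groups were taken from the labels. Replicates were numbered in listing order and pair nothing, and no litter, day or batch is given.

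Genes at 10 or more in at least 5 libraries (14630) were fitted as log2(normalized count + 1), which understates the change of low genes, with limma 3.58.1 in R 4.3.3, with an intensity trend, in 1 model that holds the mean of each of the 4 groups. Adjusted p-values of genes come from limma unless another tool is named, and tests were two-sided. Alternatives were edgeR 4.0.16 and DESeq2 1.42.0 on recovered reads, pseudocounts of 0.5 and 5, no filter, only the 2 groups compared, each library left out, and both libraries that stood apart left out. The fit was tested on simulated data. In the 40 replicate pairs of the same group, recovered reads differed by more than counting noise, with a chi-square of 3.59 to 86.57 for each degree of freedom. Floors cover counting error only.

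The 8 genes, the lists and the tests were chosen with earlier results of these data known. Named genes are the 8, the listed genes that passed, up to 4 each way per comparison, and the 10 genes most correlated with the mean of the 8, apart from genes known only by a number, and some genes of the lists and of that ranking are not reported here. Lmx1b, Col4a3, Col4a4, Aqp1, Alb, Fgb and the gene most like Podxl were chosen after their values were seen. Coordinates are from GENCODE M21 on GRCm38, in which 99.3% of genes matched 1 annotated gene.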

Additional observations from a re-analysis of the deposited data

Results flagged for a closer look

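In 3 of the 32 sets of 5 libraries examined (8 podocyte genes in 4 groups), 1 library lay far from the rest of its group, with a gap over 0.71 of the range; chance gives about 1 in 20, or 1.6. In Tert+/+ old replicate 4, Podxl was 145.3, where the other 4 libraries of that group held 342 to 409. Synpo was 439.2 in the same library, which is 1 of the 2 that stood apart on the first principal component, against 239 to 274. Clic5 was 345.4 in G3 Tert-/- old replicate 1, against 295 to 307 in the other G3 Tert-/- old libraries, and still below the lowest G3 Tert-/- young library at 354.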

How the results depend on the processing

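No paired analysis was possible because the labels give no replicate numbers. The number of the 8 genes that passed was 0 in each comparison within an age or a genotype, in the interaction and in genotype over both ages, and 1 for age over both genotypes, under every alternative run. The lowest adjusted p reached by any of the 8 under any alternative was 0.159 for genotype at 47 weeks, 0.276 at 7 weeks, 0.117 for age in G3 Tert-/-, 0.145 for age in Tert+/+, 0.513 for the interaction, 0.249 for genotype over both ages and, Clic5 apart, 0.0909 for age over both genotypes. Exact permutation p-values under 0.05 for single genes are unadjusted; those over both ages or both genotypes were chosen after seeing the data.

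Counts over all tested genes moved more. With DESeq2 they were 50 for genotype at 47 weeks, 13 at 7 weeks, 530 for age in G3 Tert-/-, 211 for age in Tert+/+, 8 for the interaction and 56 for genotype over both ages, beside 14, 0, 327, 95, 1 and 4. With only the 2 groups compared they were 6 for genotype at 47 weeks and 53 for age in Tert+/+. Without both libraries that stood apart they were 661 for age in G3 Tert-/- and 0 for the interaction. Leaving out 1 library gave 2 to 19 for genotype at 47 weeks, 0 to 2 at 7 weeks, 192 to 497 for age in G3 Tert-/-, 56 to 125 for age in Tert+/+, 0 to 2 for the interaction and 0 to 7 for genotype over both ages. The cause was not tested.

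Estimates near 0 changed sign. Without both libraries that stood apart, Synpo was 0.05 and Ptpro 0.06 for genotype at 47 weeks, Clic5 0.03 and Plce1 -0.06 at 7 weeks, and Clic5 0.04 for genotype over both ages; Ptpro by age in Tert+/+ was 0 in edgeR and 0.01 in DESeq2. Leaving out 1 library gave, for genotype at 47 weeks, Synpo -0.17 to 0.05, Ptpro -0.17 to 0.06 and Clic5 -0.07 to 0.06. At 7 weeks it gave Wt1 -0.09 to 0.15, Clic5 -0.08 to 0.03, Plce1 -0.06 to 0.09 and Magi2 -0.01 to 0.17. By age in G3 Tert-/- it gave Nphs1 -0.13 to 0.04, Plce1 -0.05 to 0.15 and Magi2 -0.07 to 0.11, and in Tert+/+ Podxl -0.13 to 0.43, Ptpro -0.13 to 0.10 and Magi2 -0.10 to 0.01. It gave Clic5 -0.05 to 0.10 and Magi2 -0.02 to 0.16 for the interaction, Clic5 -0.05 to 0.02 for genotype over both ages, and Podxl -0.20 to 0.08, Wt1 -0.12 to 0.03 and Magi2 -0.06 to 0.03 for age over both genotypes. Nid1 did not pass without the filter (adjusted p 0.0597), nor did Slc34a1 (0.0848, and 0.0512 with a pseudocount of 5).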

Other observations

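Among the genes whose log2 values, with group means removed, correlated best with the mean of the 8 podocyte genes over 20 libraries were Aak1 (Pearson r = 0.80), Creb3 (0.79), Lta4h (0.78), Acot6 (0.77), Thsd7a (0.76), Entpd6 (0.75), Dusp5 (0.74) and Hoxc8 (0.74). Thsd7a, which encodes a podocyte surface protein and an antigen of human membranous nephropathy, is the 1 gene named here that is in a podocyte list. Over all tested genes of the podocyte lists r ran from -0.59 to 0.76, with Thsd7a the highest, so the lists did not follow the mean as a whole. Thsd7a averaged 317 ± 50.3 in G3 Tert-/- old, 257 ± 19.6 in Tert+/+ old, 267 ± 68.0 in G3 Tert-/- young and 268 ± 52.2 in Tert+/+ young kidneys. Podxl on its own was most like Tomm70a, which encodes a mitochondrial import receptor (r = 0.97, and 0.92 without the 2 libraries that stood apart). All these values share libraries and depth, and carry no test.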
